A study of Caenorhabditis elegans with 8 samples.

Results

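The small piRNA cluster of Caenorhabditis elegans lies on chromosome IV between 4.5 and 7 Mb. Its members were chosen by position alone: every piRNA of the deposited table whose first listed position is on chromosome IV with a start from 4500000 to 7000000, except 21ur-1430, a locus inside the mir-790 hairpin. This gave 1511 of 9742 listed piRNAs, or 15.5%. All 1511 are 21 nt long and are listed at a single position. Coordinates and strand matched an annotated piRNA gene of WBcel235 (Ensembl release 115) for 1484 of them, and the other 27 had no match there.

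Small RNA of whole worms was sequenced from kin-3 worms cultured with 500 µM IAA (auxin) and from prde-1, prg-1 and WT worms, with 2 libraries per genotype. No IAA is recorded for the prde-1, prg-1 and WT samples. The labels give no allele, strain, developmental stage or temperature, and they do not say whether kin-3 carries a degron tag. No kin-3 library without IAA and no WT library recorded with IAA was analysed here, so the effects of the kin-3 genotype and of IAA cannot be told apart. All samples were treated with the phosphatase PIR-1 before adaptor ligation.

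piRNAs of worms, also called 21U-RNAs, are made one by one from short genes that RNA polymerase II transcribes, mostly in the germline. Most of these genes carry an upstream sequence motif and are gathered in a small and a large cluster on chromosome IV. PRDE-1 and TOFU-4 belong to USTC, the upstream sequence transcription complex, which binds at these genes. Casein kinase II, whose catalytic subunit KIN-3 is, is named in the title of the series as acting on TOFU-4. The mature 21U-RNA is bound by PRG-1, the Piwi protein of worms, and is used to recognise foreign transcripts.

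The cluster's level was close to 0 in all 3 mutant genotypes. Its 1511 loci summed to 14.7 and 3.56 RPM in the kin-3 libraries, 3.00 and 1.60 RPM in prde-1, and 11.3 and 4.29 RPM in prg-1, against 949 and 948 RPM in WT. RPM is reads scaled to 1000000 of a library's scaling total; which reads enter that total is not stated. Every mutant library lay far below both WT libraries. The WT libraries differed by less than 1 RPM. Counting error on their 1274 and 866 reads is larger than that, so the WT SD understates the uncertainty. The means were 9.11 ± 7.85 RPM in kin-3, 2.30 ± 0.985 RPM in prde-1 worms and 7.81 ± 4.99 RPM in prg-1 worms, against 948.5 ± 0.425 RPM in WT (SD, n = 2 each). In whole worms, fewer germ cells and less piRNA per cell cannot be told apart.

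**Figure D1:**
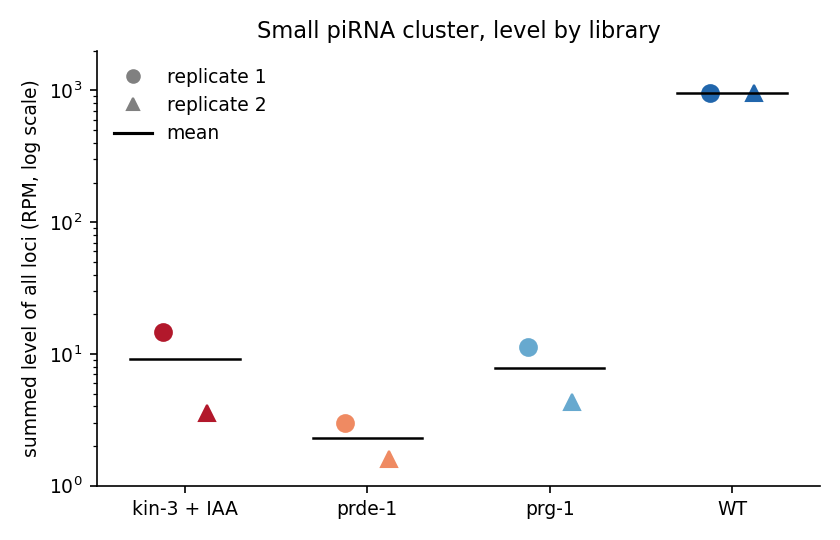
Summed level of the 1511 loci of the small cluster (RPM, log scale) in each library of kin-3 with IAA, prde-1, prg-1 and WT; circles and triangles are replicates 1 and 2 and the line is the mean. The 6 mutant libraries lie between 1.60 and 14.7 RPM and both WT libraries near 948 RPM.

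These sums rest on few mutant reads: 5 and 2 in kin-3, 16 and 9 in prde-1, and 11 and 3 in prg-1, against 1274 and 866 in WT. On pooled reads the fall against WT was 122-fold for kin-3 worms (95% interval 59.3 to 305), 415-fold for prde-1 worms (281 to 643) and 113-fold for prg-1 worms (67.3 to 207). As a ratio of mean RPM, the remaining level was 0.961% of WT in kin-3 worms, 0.243% in prde-1 worms and 0.824% in prg-1 worms. A single library decided the size of what was left in 2 of the genotypes. Without kin-3 replicate 1 the kin-3 value was 0.375%, and without kin-3 replicate 2 it was 1.55%; without prg-1 replicate 1 the prg-1 value was 0.452%.

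The mutants were also set against each other on pooled reads. The cluster's level in kin-3 was 3.39 times that in prde-1 (95% interval 1.24 to 8.07) and 0.924 times that in prg-1 (0.316 to 2.45), and the level in prde-1 was 0.272 times that in prg-1 (0.136 to 0.567). The order of prde-1 against the other mutants turned when the libraries were rescaled by TMM, which set the remaining level to 0.991% of WT in kin-3 worms, 3.29% in prde-1 worms and 1.62% in prg-1 worms. No p-value is given for these sums, and 2 libraries against 2 could not give an exact permutation p below 0.333.

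In number, 5 and 2 members had a read in the kin-3 libraries, 9 and 6 in prde-1 worms and 11 and 3 in prg-1 worms, against 500 and 384 in WT. Detection follows depth, and the scaling totals ran from 341001 reads (kin-3 replicate 1) to 5608712 reads (prde-1 replicate 2). Thinned to 341001 reads, 3.11 members were expected in kin-3, 0.742 in prde-1 worms and 2.66 in prg-1 worms, against 203 in WT (means over 2 libraries). Of all 1511 members, 847 had no read in any of the 8 libraries. A WT read was found for 654, and 230 of these had a read in both WT libraries.

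The level in WT was spread over many loci, most of them with few reads. Of the 1511 members, 37 had 10 or more pooled WT reads, 286 had 2 to 9 and 331 had 1. The most abundant member held 5.90% of the cluster's WT level, the 10 most abundant held 18.6%, and 72 members (4.77% of those listed) made up the upper 50%. In the large cluster, the 8018 piRNAs of chromosome IV from 13 Mb, the corresponding values were 1.67%, 8.45% and 277 loci (3.45%). The first 2 of these compare equal numbers of loci in lists of unequal length. At equal shares of the list, the upper 1% held 23.1% in the small and 28.0% in the large cluster. The upper 10% held 66.5% and 72.2%. The mean WT level per listed locus was 0.628 RPM in the small cluster and 1.51 RPM in the large one, and 43.3% against 50.8% of the listed loci had a WT read. This difference between the clusters was not tested.

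**Figure D2:**
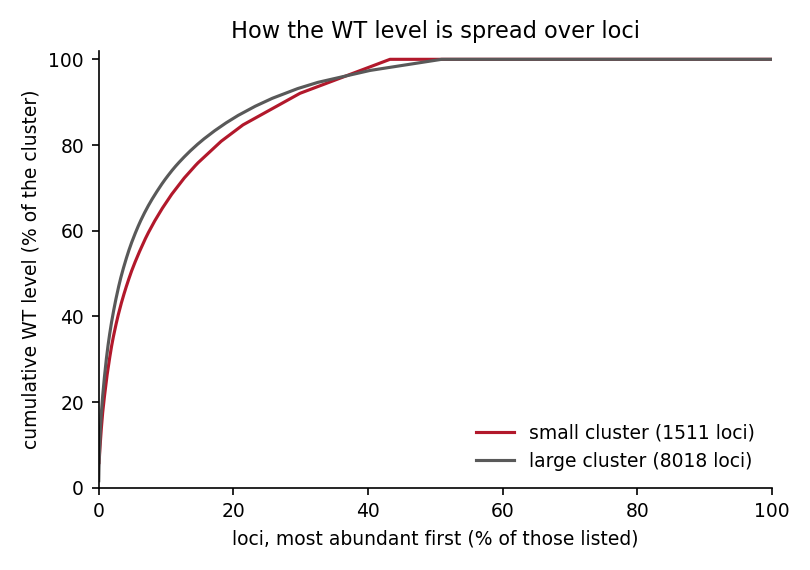
Cumulative share of a cluster's WT level (y, % of the cluster) over its loci ranked from the most abundant (x, % of those listed), for the small cluster and the large cluster. The small cluster reaches 50% of its level at 4.77% of its loci and the large cluster at 3.45%.

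21ur-5083 was the most abundant member. It lies at 5980165 to 5980185 on the minus strand, antisense in an intron of unc-44, an ankyrin gene needed for axon guidance, and sense to an exon of the annotated noncoding RNA B0350.77. It had no read in either library of kin-3, prde-1 or prg-1, against 71.5 and 40.5 RPM (96 and 37 reads) in WT. The groups did not overlap. The same held for all 44 members tested below, but these were picked for testing through their WT level, so little else was possible. The share over all tested piRNAs was not counted. The WT libraries differed from each other by more than their scaling totals predict. Against a floor of 3 pooled reads, its level was at least 16.9-fold lower in kin-3, at least 204-fold lower in prde-1 worms and at least 31.2-fold lower in prg-1 worms than in WT. On the log2(RPM + 1) scale the fold change was -5.78 (SE 0.26, limma adjusted p = 5.7e-06 in kin-3, 5.8e-06 in prde-1 worms and in prg-1 worms), the same in each mutant because all of them were at 0. The piRNA was picked and tested through its WT level alone, so the test had to find a difference and adds no support.

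The next 3 members in rank also lie in introns. 21ur-8392 (4833476 to 4833496, minus strand) is sense within an intron of tat-2, a P4-type ATPase gene, and had no mutant read, against 23.1 and 14.2 RPM in WT. 21ur-5543 (5920617 to 5920637, plus strand) is sense within an intron of dhhc-13, which encodes a protein of the palmitoyltransferase family, and had no mutant read, against 14.9 and 16.4 RPM in WT. 21ur-5573 (6003642 to 6003662, plus strand) is also in unc-44, there on the sense strand, and had no mutant read, against 12.7 and 16.4 RPM in WT. For these 3 piRNAs each WT library was above every mutant library. The bounds on their fall ran from 4.38-fold to 5.62-fold in kin-3 and from 53.1-fold to 68.1-fold in prde-1.

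The 4 that followed were alike in WT level. 21ur-9747 (5515093 to 5515113, minus strand) is sense within an intron of the netrin receptor gene unc-5 and was listed at 0 in all mutant libraries, against 13.4 and 14.2 RPM in WT. cel-piR-15894 (5118031 to 5118051, plus strand) is antisense within an intron of tkr-3, a tachykinin receptor gene, and stood at 0 in the mutants, against 10.4 and 15.3 RPM in WT. 21ur-4620 (6066041 to 6066061, minus strand) lies antisense in an intron of kcc-2, a potassium-chloride cotransporter gene, and 21ur-2999 (5719805 to 5719825, plus strand) lies outside coding genes. Each of the last pair had no mutant read, against 13.4 and 12.04 RPM in WT. The WT libraries of these 4 overlap, so their order is not fixed.

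Among the 15 members with the highest mean over the 8 libraries, 13 had no kin-3 read, 14 no prde-1 read and 15 no prg-1 read. The exceptions were 21ur-9127 and 21ur-1022. 21ur-9127 (5737411 to 5737431, plus strand, opposite an exon of linc-134, a long noncoding RNA) had 2.93 and 0 RPM in kin-3, a single read, and 0 in prde-1 and prg-1, against 11.2 and 7.66 RPM in WT. 21ur-1022 (5323996 to 5324016, minus strand, in an slc-46A intron and antisense to it) had 2.93 and 0 RPM in kin-3, 0.187 and 0 RPM in prde-1 worms and 0 in prg-1 worms, against 8.94 and 7.66 RPM in WT. The kin-3 values of both lay below both WT values.

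The fall of these 2 piRNAs in kin-3 was the least certain. Both were picked and tested through their WT level, so the tests below leaned to a difference and add no support. On pooled reads 21ur-9127 was 8.81-fold lower in kin-3 than in WT (95% interval 1.42 to 363), with a log2 fold change of -2.37 (SE 0.64; limma, adjusted p = 0.0142). For 21ur-1022 the level was 7.61-fold lower in kin-3 (1.21 to 316) with a log2 fold change of -2.23 (SE 0.63; limma, adjusted p = 0.0169), and 92.2-fold lower in prde-1 worms (14.7 to 3830). In kin-3 both calls ended in 5 of the 16 alternatives in which they could be tested, among them leaving out either WT library (limma adjusted p 0.119 without WT replicate 1 and 0.0753 without WT replicate 2 for 21ur-9127, and 0.121 and 0.0991 for 21ur-1022). Over the alternatives the adjusted p ran from 1.4e-04 to 0.119 for 21ur-9127 and from 5.8e-05 to 0.121 for 21ur-1022. In the other mutants, the limma call of 21ur-1022 ended without WT replicate 1 (adjusted p 0.0551 in prde-1 worms and 0.0502 in prg-1 worms), and in prde-1 also under edgeR with TMM (0.246). Over the alternatives its adjusted p ran from 1.4e-12 to 0.246 in prde-1 and from 2.4e-05 to 0.0502 in prg-1.

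The remaining 5 of the 15 (21ur-3828, 21ur-6129, 21ur-9134, 21ur-11202 and 21ur-1860) lie outside coding genes, had no mutant read and ranged from 8.30 to 9.57 RPM in WT. 21ur-9134 was uneven, at 0 in every mutant library against 4.47 and 13.1 RPM in WT. 21ur-1860 starts 767 bases from 21ur-1430, the locus left out, on the other strand. In prde-1, 21ur-1860 was at 0 in both libraries, against 8.94 and 7.66 RPM in WT, while 21ur-1430 stood at 218 and 234 RPM in prde-1, against 11.9 and 7.66 RPM in WT. The 8 members that start within 2000 bases of 21ur-1430 had no mutant read, and 6 of them had a WT read.

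**Figure D3:**
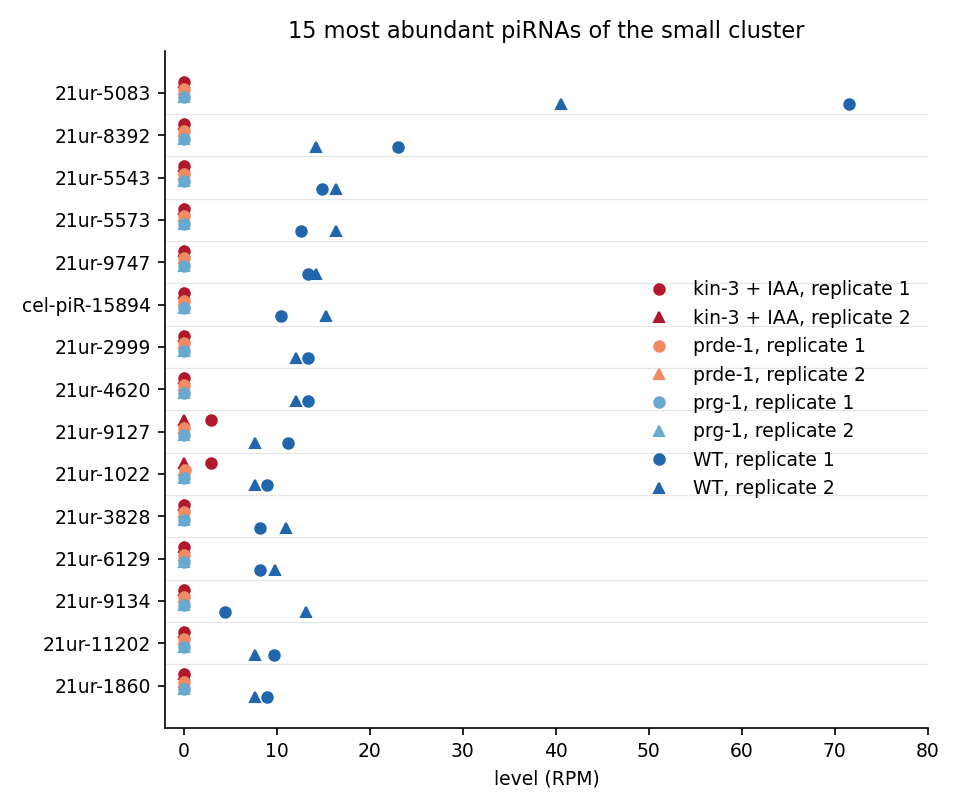
Level (RPM, linear axis) of the 15 most abundant members in each library of kin-3 with IAA, prde-1, prg-1 and WT; circles are replicate 1 and triangles replicate 2. WT libraries lie between 4.47 and 71.5 RPM, and the highest mutant value is 2.93 RPM.

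Tests of single piRNAs were run over the whole table, for the 695 piRNAs whose 8 libraries averaged 1 RPM or more. Of the 1511 members, 44 passed this filter; they held 40.4% of the cluster's WT level. They passed through their WT levels of 4.03 to 56.0 RPM, so with mutant values near 0 they had to differ. By limma, at an adjusted p under 0.05, all 44 were called lower in each mutant, where 97.8% of all tested piRNAs were called lower in kin-3 worms, 98.3% in prde-1 worms and 98% in prg-1 worms. edgeR also called all 44 lower in each, where it called 97.1%, 98.3% and 98.3% of all tested piRNAs lower. With TMM scaling, edgeR called 35 of the 44 lower in kin-3, 9 in prde-1 worms and 31 in prg-1 worms. TMM takes most piRNAs as unchanged, and under it edgeR called 89.4%, 36.1% and 74.4% of all tested piRNAs lower. The number tested rests on both WT libraries. With the filter recomputed, 24 members among 410 piRNAs were tested without WT replicate 1, and 19 among 398 without WT replicate 2. The members' median log2 fold change in kin-3 was then -3.36 and -3.42, against -3.71 and -3.77 over all tested. None of the 44 was called higher in any mutant by limma or by edgeR, and none was higher at an unadjusted limma p under 0.05. Of all tested piRNAs, limma called 0.288% higher in kin-3, 0.863% in prde-1 worms and 0.432% in prg-1 worms.

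The median log2 fold change of the 44 was -2.84 in kin-3, -2.88 in prde-1 worms and -2.88 in prg-1 worms, and over all 695 it was -3.06, -3.06 and -3.04. These medians follow the WT level and the pseudocount of 1, since 41 of the 44 had no mutant read at all. The 29 tested members outside the 15 ranged from 4.03 to 8.30 RPM in WT (median 5.52 RPM), and of these 21ur-1374, in an intron, had a mutant read, 1 in prde-1. At the edge of the filter, 21ur-12379, the last to be tested, had no mutant read against 1.49 and 6.57 RPM in WT, and 21ur-9552, the next below it, had none against 4.47 and 3.28 RPM in WT.

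In all, 32 members had a read in some mutant library: 7 in kin-3, 14 in prde-1 worms and 14 in prg-1 worms. All 7 of the kin-3 members and all 14 of the prg-1 members had exactly 1 read. No member was read in all 3 mutants. 21ur-1022 was read in kin-3 and prde-1 (1 of 7 and 1 of 14 members), 21ur-6598 in kin-3 and prg-1 (1 of 7 and 1 of 14), and 21ur-6897 in prde-1 and prg-1 (1 of 14 each).

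In prde-1 the reads were uneven, with 3 members holding 14 of the 25. 21ur-11130 (6342778 to 6342798, minus strand, sense within an exon of the coding gene Y73B6BL.14) had 2 and 4 reads, or 0.375 and 0.713 RPM, in prde-1 and none in WT. It was the only member with a read in both libraries of a mutant. 21ur-9599 (5380573 to 5380593, minus strand, on the sense strand of an exon of linc-36, also a long noncoding RNA) had 6 and 0 reads in prde-1 and none in WT, and 21ur-14313 had 2 and 0 reads in prde-1 and none in WT; these were singled out after their values were seen. The pooled prde-1 level of each lay below the WT floor of 3 pooled reads, 1.33 RPM, so their absence in WT is within what a count of 0 allows. Without the filter, 664 members were tested, and limma called 224, 224 and 223 of them lower in kin-3, prde-1 worms and prg-1 worms, where 45.4%, 45.4% and 45.3% of the 4878 piRNAs tested were called lower. There 21ur-11130 was the only member called higher, in prde-1 (log2 fold change 0.62, SE 0.16; limma, adjusted p = 0.0219), where 0.041%, 0.185% and 0.041% of all tested piRNAs were called higher in kin-3, prde-1 worms and prg-1 worms. That call rests on 6 prde-1 reads against 0 in the shallower WT libraries, and no rise of 21ur-11130 is drawn from it.

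The remaining members named for their mutant levels had single reads. cel-piR-15780 had 2.93 and 0 RPM in kin-3, against 2.98 and 1.09 RPM in WT. It overlaps another member on its strand, so the assignment of its reads is uncertain. 21ur-776 had 2.93 and 0 RPM in kin-3, against 2.98 and 0 RPM in WT, and overlaps another member likewise. 21ur-11818 had 2.93 and 0 RPM in kin-3 with no WT read, 21ur-4280 had 0 and 1.78 RPM in kin-3 against 0.745 and 0 RPM in WT, and 21ur-4804 had 0 and 1.43 RPM in prg-1 against 0.745 and 1.09 RPM in WT. In the mutant given for each, no difference was detectable at these levels. In prde-1, cel-piR-15780, 21ur-776 and 21ur-4804 had no read. Against the floor of 3 pooled reads they were at least 7.43-fold, 5.43-fold and 3.36-fold lower there than in WT. Those bounds rest on 5, 4 and 2 WT reads and leave out the counting error of WT, so they are not limits on the true fall. Without the filter, limma called none of them lower in prde-1 (adjusted p 0.124, 0.284 and 0.126).

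Members without a WT read held 2 of the 7 kin-3 reads, 16 of the 25 prde-1 reads (64.0%) and 4 of the 14 prg-1 reads. Of those 16 prde-1 reads, 21ur-11130 and 21ur-9599 held 6 each, so the 64.0% rests mostly on them. The pooled scaling totals were 10946358 reads in prde-1 and 2256085 in WT, so a locus read in prde-1 alone need not be absent from WT. In the large cluster, loci without a WT read held 2 of 41 reads in kin-3, 48 of 230 in prde-1 worms (20.9%) and 24 of 86 in prg-1 worms. Over the small-cluster members with a WT read, the prde-1 level was 0.0867% of WT on pooled reads (95% interval 0.0396 to 0.165), and it was 0.584% in kin-3 (0.189 to 1.36) and 0.631% in prg-1 (0.302 to 1.16). That choice of loci uses the WT reads, so these values are a description.

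Set beside the large cluster, the remaining level on pooled reads was 0.817% of WT in the small and 0.374% in the large cluster in kin-3 (95% intervals 0.328 to 1.69 and 0.268 to 0.507). In prde-1 it was 0.241% and 0.173% (0.155 to 0.356 and 0.151 to 0.197), and in prg-1 it was 0.884% and 0.424% (0.482 to 1.49 and 0.339 to 0.524). The small cluster's share of the reads of both clusters was 14.6% in kin-3 (7 of 48 reads, 95% interval 6.07 to 27.8), 9.80% in prde-1 worms (25 of 255, 6.45 to 14.1) and 14.0% in prg-1 worms (14 of 100, 7.87 to 22.4), against 7.25% in WT (6.95 to 7.55). By library the share was 18.5% and 9.52% in kin-3, 12.2% and 7.26% in prde-1 worms, and 16.7% and 8.82% in prg-1 worms, against 7.19% and 7.34% in WT. The pooled interval of prg-1 lay above that of WT, and those of kin-3 and prde-1 overlapped it. The lower kin-3 and prg-1 libraries rest on 2 and 3 member reads, and the difference between the clusters was not tested over libraries.

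**Figure D4:**
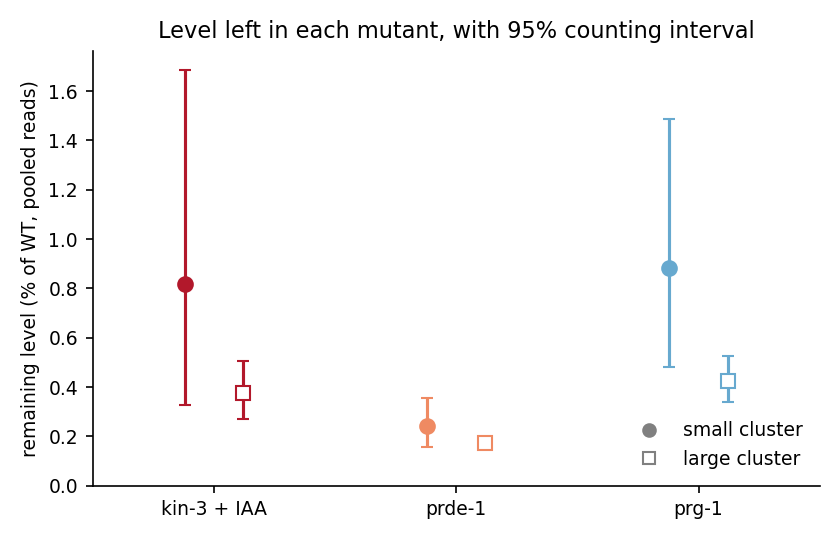
Remaining level as a percent of WT on pooled reads (y) in kin-3 with IAA, prde-1 and prg-1, for the small cluster (filled circles) and the large cluster (open squares), with exact 95% counting intervals. The points of the small cluster lie at 0.817%, 0.241% and 0.884%, and those of the large cluster at 0.374%, 0.173% and 0.424%.

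As a share of all listed piRNA reads, the small cluster held 6.10% and 1.71% in kin-3, 0.778% and 0.399% in prde-1 worms, and 4.95% and 1.92% in prg-1 worms, against 7.12% (95% interval 6.75 to 7.51) and 7.27% (6.81 to 7.75) in WT. Every mutant share was below both WT shares, but the intervals of kin-3 replicate 1 (2.01 to 13.7) and prg-1 replicate 1 (2.499 to 8.69) included them. Listed piRNAs that belong to neither cluster, 21ur-1430 among them, held most of the piRNA reads of each mutant.

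Along the window the members were unevenly spread. No piRNA was listed between 4437744 and 4767704, where 21ur-11429, the first member, starts with 1 WT read in an exon of the nucleoporin gene npp-26, on the antisense strand. The last was 21ur-9962 at 6998252, also with 1 WT read. The bin from 5.75 to 6 Mb was the densest, with 291 members, 128 of them with a WT read, and 244 and 247 RPM in the WT libraries, or 25.9% of the cluster's level. Without 21ur-5083 that bin still held 189 RPM. The bin from 5.5 to 5.75 Mb followed with 262 members and 185 and 183 RPM in WT, while the 2 bins from 6.5 to 7 Mb held 59 and 55 members. Mutant reads lay in every 0.5 Mb bin except 4.5 to 5 Mb, where 128 members had none in any mutant, against 91.6 and 72.3 RPM in WT.

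**Figure D5:**
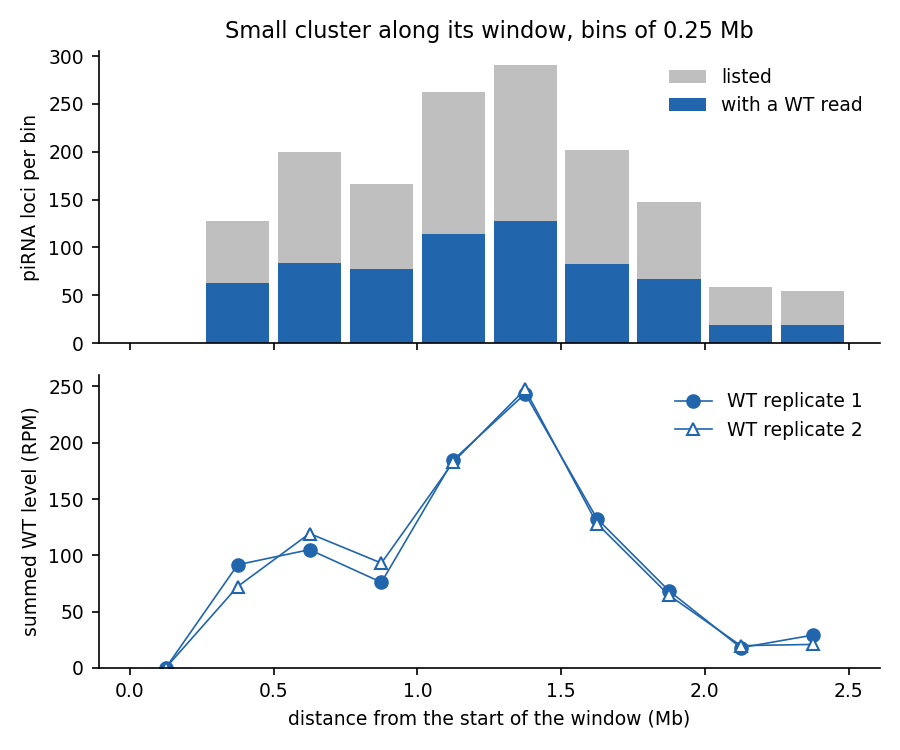
Upper panel: piRNA loci per 0.25 Mb bin, listed (grey) and with a WT read (blue), by distance from the start of the window (Mb). Lower panel: summed WT level (RPM) of each bin in the 2 WT libraries. Both peak in the bin from 1.25 to 1.5 Mb, with 291 loci and 244 and 247 RPM.

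The members had a median distance of 612 bases from one start to the next (quartiles 293 and 1183), against 241 bases in the large cluster. Of the 1511 members, 185 (12.2%) overlapped another member on the same strand, against 28.2% in the large cluster, and 14 overlapped one on the opposite strand. The strands were used about equally in number, with 776 members on the minus and 735 on the plus strand. The minus strand held more of the level, 550 and 541 RPM in the WT libraries, against 398 and 407 RPM on the plus strand; without 21ur-5083 its mean was 489.6 RPM, still above 403 RPM.

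By annotated host, 731 members (48.4%) lay in introns of coding genes, 706 (46.7%) outside coding genes and 74 (4.90%) in coding exons. In the large cluster 31.1% lay in introns, 65.9% outside coding genes and 3.06% in exons. Introns held 52.2% of the small cluster's WT level, loci outside coding genes 45.1% and exons 2.66%. Without 21ur-5083, which is intronic, introns held 49.2% and loci outside coding genes 48.0%. Per 100 listed loci the mean WT level was 67.7 RPM in introns, 60.6 RPM outside coding genes and 34.1 RPM in exons, and 41.7%, 45.6% and 36.5% of the loci had a WT read. The order of introns and loci outside coding genes rests on 21ur-5083, without which introns had 60.2 RPM per 100 listed loci. Of the intronic members, 374 were antisense to their host and 357 sense, with WT levels of 240 and 255 RPM. A locus in introns of genes on opposite strands was counted as sense. The antisense level includes the 56.0 RPM of 21ur-5083.

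The intronic and exonic members fell in 159 coding genes, and 15 of these genes held 10 or more members each. unc-5 held the most, 55 members with a summed WT level of 48.8 RPM. fkh-7, which encodes a forkhead transcription factor, followed with 52 members and 11.1 RPM, and unc-77, which encodes a sodium leak channel subunit, with 41 members and 12.4 RPM. kcc-2 had 39 members and 35.0 RPM. unc-44 had 14 members but held 77.4 RPM, or 8.16% of the cluster's WT level, most of it from 21ur-5083 and 21ur-5573.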

How the data were processed

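The authors deposited RPM values, reads scaled to 1000000 of a library total, for 9742 piRNAs in 8 libraries; the tools, per the submitters' processing notes, were cutadapt 1.18 and Bowtie 1.2.1.1. The sources used here do not name settings, a genome build or the treatment of reads matching several loci. Divided by the value of 1 read, 100% of the positive values came out whole (tolerance 0.01 reads); the step also gave the scaling total. No value column was left unused.

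The whole table was tested with limma 3.58.1 (R 4.3.3, trended prior) on log2(RPM + 1), with genotype over all 8 libraries, for piRNAs with a mean of at least 1 RPM; two-sided p-values were adjusted by Benjamini-Hochberg over all tested, at 0.05. This scale makes changes of low piRNAs look smaller, and genotypes at 0 add no spread, so SEs can be too small. edgeR 4.0.16 on recovered reads was an alternative and called 675, 683 and 683 of the 695 tested piRNAs lower in kin-3, prde-1 worms and prg-1 worms. Scripts were tested on simulated data. Sums carry exact 95% intervals on pooled reads (conditional binomial for ratios, Clopper-Pearson for shares) and floors of 3 reads; the labels state no molecular identifiers, and both cover counting error only.

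Replicates are separate samples in the labels, which name no separate cultures. The p-values therefore reflect the spread between libraries alone, which may be technical. Tested by chi-square, recovered reads of a genotype's libraries did not differ beyond sampling noise in kin-3 (p = 0.236), prde-1 (0.0806), prg-1 (0.596) or WT (0.131, over 647 piRNAs with at least 10 reads), the mutants on 4 to 17 piRNAs. No pair of columns was identical, so each library was counted as 1 sample. Of the 37 members with at least 10 WT reads, 21ur-5083, 21ur-9134 and 21ur-762 split between the WT libraries outside the 95% interval of their scaling totals.

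Hosts are those of the Ensembl annotation. The members and lists were chosen with earlier results of these data known. Members named are the 15 with the highest mean over the 8 libraries, up to 10 with reads in both libraries of a mutant or the highest mutant sums, and the first and last by position with a WT read; other names were picked with their values in view. The table lists piRNAs only, so markers of tissue and the transcripts of the 3 mutated genes were not analysed here, nor were sequences and upstream motifs.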

Additional observations from a re-analysis of the deposited data

How the results depend on the processing

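Alternatives tried were pseudocounts, filters, TMM, the replicate block, fits of 2 genotypes, edgeR and leaving out each library. Under the other alternatives not named here, 41 to 44 of the 44 tested members stayed called lower. Without the filter 664 members were tested, and 224 were called lower in kin-3, 224 in prde-1 worms and 223 in prg-1 worms, with 1 higher in prde-1; at a mean of at least 10 RPM 1 member, 21ur-5083, was tested and called lower in each. edgeR with TMM called 35 lower in kin-3, 9 in prde-1 worms and 31 in prg-1 worms; the cause was not tested. Leaving out 1 library, with the filter recomputed, gave 17 to 52 in kin-3, 19 to 53 in prde-1 worms and 19 to 53 in prg-1 worms, the lowest without WT replicate 2, where 19 members were tested; a lone library was assumed to vary like the other groups. TMM moved the median log2 fold change of all tested piRNAs from -3.06, -3.06 and -3.04 to -2.05, -2.02 and -2.04, and the level left to 3.29% of WT in prde-1 worms and 1.62% in prg-1 worms. Counting only members of at least 1 RPM it was 0.0489% in prde-1 worms and 0% in prg-1 worms, and counting only mutant reads at members with a WT read, chosen after seeing the data, 0.0870% in prde-1. Leaving out 1 library gave 0.375% to 1.55% in kin-3, 0.169% to 0.316% in prde-1 worms and 0.452% to 1.196% in prg-1 worms. The cluster's share of the WT piRNA level was 7.20%, and 4.44% among piRNAs of at least 1 RPM. Thinned to the smallest total, 0.742 members were detected in prde-1 and 203 in WT; at 1 RPM or more, 0.5 and 302.5. Of 720 values for single members, 702 kept their side of the threshold, 18 lost the call and none changed sign. Those members were picked for a high mean and nearly all their mutant values were 0. Their sign could hardly change and most calls were set in advance, so these counts are no support. With the replicate block 44 members were called lower in each mutant. The difference between replicates 1 and 2 correlated with that in WT by 0.024, 0.0061 and -0.029 over 695 piRNAs for kin-3, prde-1 worms and prg-1 worms, so the numbers are not taken as pairs. The planned motif comparison was not run. Depth limits kin-3 most: 1 read there was worth 2.93 and 1.78 RPM.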
